A study of Mus musculus with 4 samples.

Results

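The genes described here were the sensors of the unfolded protein response (UPR) with their transcription factors and phosphatase subunits, 10 genes chosen by symbol from the 53465 genes of the deposited expression table. They comprised the 3 sensor genes *Ern1*, *Eif2ak3* and *Atf6*, the transcription factor genes *Xbp1*, *Atf4*, *Ddit3* and *Atf3*, the pseudokinase gene *Trib3*, and *Ppp1r15a* and *Ppp1r15b*, which encode the regulatory subunits of the eIF2α phosphatase. All 10 were listed and all 10 passed the filter on low values. The UPR answers misfolded protein in the endoplasmic reticulum (ER) through sensors in the ER membrane. IRE1, encoded by *Ern1*, removes an intron from *Xbp1* mRNA in the cytoplasm, PERK, encoded by *Eif2ak3*, phosphorylates the initiation factor eIF2α and thereby slows translation while favouring *Atf4* mRNA, and ATF6 is cut in the Golgi to release a transcription factor. XBP1 and ATF6 act on chaperone and ER-associated degradation genes, whereas ATF4 and CHOP, encoded by *Ddit3*, act on amino acid metabolism and cell death genes.

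The study asked what NAT10, the acetyltransferase that writes N4-acetylcytidine (ac4C) on RNA, does in mouse female germline stem cells (FGSCs), a cultured line derived from the ovary. Long RNA-seq was compared between FGSCs that carried a lentiviral control shRNA (shNC, 2 libraries) and FGSCs that carried a lentiviral shRNA against *Nat10* (shNAT10, 2 libraries). Every library therefore came from infected cells that had been selected with an antibiotic, and there was no uninfected group. The study lists several *Nat10* shRNA sequences, does not say which of them the sequenced cells carried, and describes the libraries as biological replicates without giving separate cultures or clones, so the p-values below measure the spread between these libraries.

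Values are FPKM, fragments per kilobase of exon divided by 1 scaling factor per library, which allow levels of different genes to be set side by side. Log2 fold changes are differences of log2(FPKM + 0.1), shNAT10 minus shNC, from limma, a linear model fitted across all genes. A gene is said to have risen or fallen where its fold change was over 1.2 with an unadjusted p of at most 0.05. From 11057927 to 14902415 fragments per library were recovered on genes. The scaling factors did not follow these totals: shNC replicate 1, with the most fragments, had the smallest factor and shNAT10 replicate 2 the largest. The rRNA-related loci held 38.7% and 29.8% of them in shNC and 18.3% and 20.2% in shNAT10, a share that moved with the groups and whose part in the results was not tested. The target of the shRNA was lower in both shNAT10 libraries: *Nat10* stood at 7.79 and 5.42 FPKM in shNC and at 2.95 and 3.04 FPKM in shNAT10, with a log2 fold change of -1.09 (SE 0.21, limma adjusted p = 0.123) that passed this threshold. That call was lost without shNAT10 replicate 1 (log2 fold change -1.07) and without shNAT10 replicate 2 (-1.11), each of which leaves a single library in the group. For its FGSCs the study reports RT-PCR of *Oct4* (*Pou5f1*), *Ddx4*, *Fragilis* (*Ifitm3*) and *Blimp1* (*Prdm1*), and immunofluorescence of DDX4 and OCT4. In these libraries the label of germline stem cells met little in the defining markers. *Pou5f1*, *Dazl*, *Dppa3*, *Sall4* and *Tfap2c* were listed at 0 in all 4 libraries, and *Ddx4* reached 0.0529 FPKM in shNAT10 replicate 1 and was listed at 0 in the others. *Prdm1* had 6 recovered fragments in each library and *Zbtb16* had 21 to 48, both named after their values were seen. The summed germline level, nearly all from *Ifitm3*, was 9.91 and 22.7 FPKM in shNC against 27.8 and 34.4 FPKM in shNAT10. Of the 2 germline markers tested, *Ifitm3* (1.06) and *Zbtb16* (0.47), 0 passed the threshold. All 8 pan-leukocyte markers had values, with sums of 467 and 516 FPKM in shNC against 385 and 408 FPKM in shNAT10, and 4 of the 8 passed the threshold as lower. At equal FPKM totals 0 of the 8 passed as lower, with *Cd53* at -0.06 and *Lcp1* at 0.15, and with a library left out 0 to 3 did, 0 without shNAT10 replicate 1. The mast cell list, led by *Cpa3*, summed to between 322 and 332 FPKM with *Fcer1a* and *Tpsb2* at 0. Of its 6 tested markers, *Kit* (log2 fold change -0.60), *Gata2* (-0.33) and *Mitf* (-0.39) fell and *Ms4a2* (2.12) rose, and none of these 3 falls held without each library in turn: *Kit* was lost without shNAT10 replicate 1 (-0.55), *Gata2* also without shNAT10 replicate 2 (-0.33), and *Mitf* in all but the fit without shNAT10 replicate 1. *Ms4a2* did not pass without shNAT10 replicate 1 (1.99), and at equal FPKM totals *Gata2* (0.19) and *Mitf* (0.13) were positive. The macrophage list, led by *Adgre1*, summed to 51.4 and 54.6 FPKM in shNC against 42.3 and 46.8 FPKM in shNAT10, with *C1qa* at 0. Of its 5 tested markers, *Adgre1* fell (-0.37) and *Lyz2*, named after its values were seen, rose (1.35). The rise of *Lyz2* rested on few recovered fragments, 7 and 6 in shNC and 16 and 31 in shNAT10. *Adgre1* was at 0.15 at equal FPKM totals and passed in no fit with a library left out but the one without shNAT10 replicate 2. The fibroblast list, led by *Dcn*, summed to 54.1 and 47.2 FPKM in shNC against 65.1 and 55.4 FPKM in shNAT10, with *Lum* at 0. *Foxl2* and *Fshr* of the granulosa list and *Jchain*, *Cd79b* and *Ms4a1* of the B and plasma cell list were at 0, and those lists summed to at most 9.15 and 9.89 FPKM. The part of these cell type signals in the results below was not tested.

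Of the 10 members, 8 fell past the threshold, none (0) rose, and the 2 others, *Ern1* and *Eif2ak3*, had negative fold changes that did not pass, although equal FPKM totals over all but the rRNA-related loci turned 6 of the 10 fold changes positive. Of the 20116 genes tested, 7.83% were called lower and 8.41% higher by the same rule. The median log2 fold change was -0.47 over the members and 0.01 over all genes tested. The largest falls were those of *Ddit3*, *Atf3* and *Ppp1r15a*, each by more than the spread between libraries of a group. Both shNAT10 values were below both shNC values for 9 of the 10 members, all but *Eif2ak3*, a pattern that 24.1% of all genes tested showed. After Benjamini-Hochberg adjustment over all genes, 1 member, *Ddit3*, had a limma adjusted p under 0.05, against 0.104% of all genes tested as lower. That call did not hold with pseudocounts of 1 (limma adjusted p = 0.0605) and 0.01 (0.0594), without the filter (0.101), without the trend (0.184), with the replicate block (0.0745), at equal FPKM totals (0.180) or equal fragment totals (0.0676), or with any library left out (0.169 to 0.451). It held over genes with a mean of at least 1 FPKM (0.0229) and at equal FPKM totals that also left out *Gm23935* and *Lars2* (0.0300). A limma-voom fit on fragments recovered from the FPKM gave 8 members an adjusted p under 0.05 as lower, all but *Ern1* and *Eif2ak3*. Of 20077 genes, 3.64% had an adjusted p under 0.05 as lower in that fit. In bulk RNA, fewer cells of a type and less RNA per cell cannot be told apart. An exact permutation test of a single gene with 2 libraries against 2 cannot give a two-sided p below 0.333 and was not used for calls.

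The size of a fall depended on how the libraries were made comparable. The FPKM as deposited were already balanced, since median-ratio size factors computed on them were 1 in all 4 libraries. Equal FPKM totals, with rRNA-related loci left out of the sum, moved the median of all genes to a log2 fold change of 0.49, at which 2 members, *Ddit3* and *Ppp1r15a*, stayed past the threshold. Relative to that median all 10 members were lower, from -0.28 for *Eif2ak3* to -1.30 for *Ddit3*. Rescaling moves all genes by nearly the same amount. Values relative to the median, here and for the lists below, therefore nearly repeat the deposited fit and test nothing. When *Gm23935* and *Lars2*, a pair of features of very high FPKM, were also left out of the total, the median of all genes was 0.04 and 8 members passed, and at the same total of recovered fragments the median was 0.11 and 8 members passed.

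**Figure D1:**
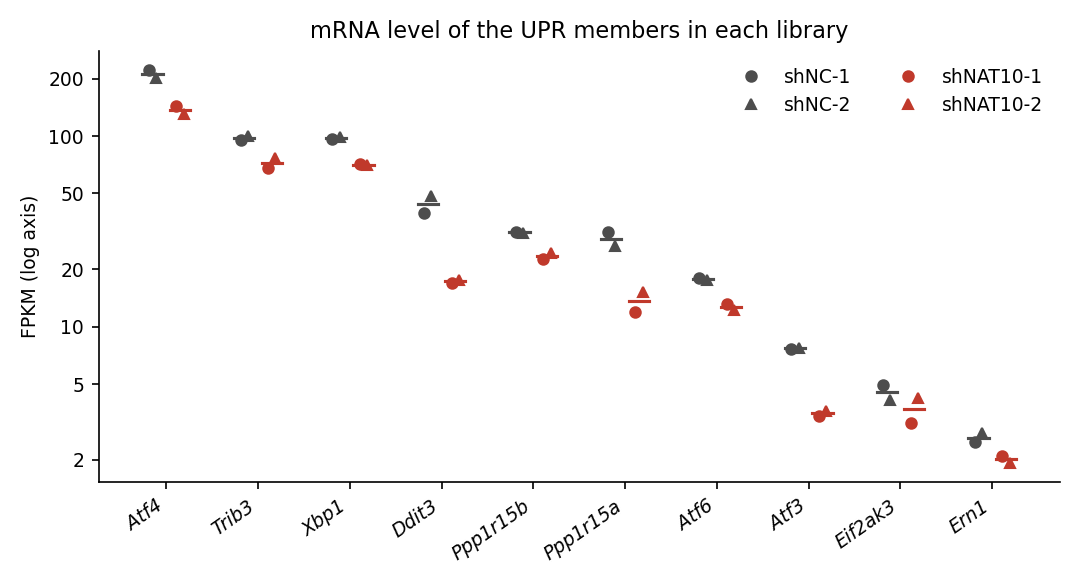
FPKM of the 10 UPR members (log axis) in the 2 shNC libraries (grey) and the 2 shNAT10 libraries (red), ordered by the shNC mean, with circles for replicate 1, triangles for replicate 2 and horizontal lines for group means. The red symbols lie below the grey ones for every member except Eif2ak3, whose groups overlap. The values are FPKM as deposited.

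Among the sensors, *Atf6* was the most abundant transcript and the one that fell. *Atf6* (chr1:170704674-170867771, minus strand, GRCm38) was at 18.0 and 17.6 FPKM in shNC and at 13.2 and 12.3 FPKM in shNAT10. Both shNAT10 values were lower than both shNC values, and the gap was wider than the difference inside either group. The log2 fold change was -0.48 as deposited (SE 0.09, limma adjusted p = 0.124) and 0.04 at the same FPKM total. *Ern1* (chr11:106394650-106487852, minus strand), the rarest member, was at 2.47 and 2.75 FPKM in shNC and at 2.11 and 1.93 FPKM in shNAT10. These groups did not overlap, but the log2 fold change of -0.35 (95% interval -0.77 to 0.06, limma adjusted p = 0.366) did not pass, and it was 0.15 at the same FPKM total. In the limma-voom fit *Ern1* passed the unadjusted threshold, with an adjusted p = 0.198. *Eif2ak3* (chr6:70844515-70905245, plus strand) was at 4.96 and 4.12 FPKM in shNC and at 3.12 and 4.23 FPKM in shNAT10. Its second shNAT10 library lay inside the shNC range, and the log2 fold change of -0.31 had a 95% interval of -0.84 to 0.23 (limma adjusted p = 0.533), so that neither a fall as large as that of *Atf4* nor no change lay outside it. At the same FPKM total the value for *Eif2ak3* was 0.20. Exons of *Eif2ak3* share 485 bases with *Gm43292* on the opposite strand, which was at 2.36 and 1.96 FPKM in shNC and at 1.66 and 2.56 FPKM in shNAT10.

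Of 17 tested genes that encode partners and paralogs of the sensors, 2 fell and none (0) rose as deposited, while at equal FPKM totals 0 were lower and 1 was higher. Over all genes tested, 7.83% were called lower and 8.41% higher, 24.1% had both shNAT10 values below both shNC values, and 9956 of 20116 fold changes were negative. In this list the median was -0.21, 13 of the 17 fold changes were negative, and in 9 both shNAT10 values were below both shNC values. *Pdia5*, a disulfide isomerase gene tied to ATF6 activation and named after its values were seen, had the lowest fold change of them (-0.86), which did not pass. Those that fell were *Zbtb8os*, a cofactor of the tRNA ligase complex that rejoins *Xbp1* mRNA, at 6.17 and 8.11 FPKM in shNC and at 4.90 and 4.91 FPKM in shNAT10, and *Creb3*, a paralog of ATF6 at the ER membrane, at 19.4 and 23.4 FPKM against 15.5 and 17.2 FPKM. Neither passed without shNAT10 replicate 1 (*Zbtb8os* -0.52, *Creb3* -0.31) or shNAT10 replicate 2 (*Zbtb8os* -0.52, *Creb3* -0.46), nor did *Creb3* without shNC replicate 2 (-0.25). At the same FPKM total neither passed, with *Creb3* at 0.14, and the median of the list was 0.29, which is -0.19 relative to that of all genes. The ATF6 paralog *Atf6b* stood at 18.7 and 15.8 FPKM in shNC and at 17.0 and 16.1 FPKM in shNAT10, both inside the shNC range (named after its values were seen). The ligase gene *Rtcb*, also named after its values were seen, had a log2 fold change of 0.10 that did not pass.

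*Xbp1* (chr11:5520659-5525893, plus strand), the mRNA that IRE1 cuts, was among the most abundant members and fell by a small and even amount. It stood at 96.6 and 98.3 FPKM in shNC and at 71.3 and 70.2 FPKM in shNAT10. The libraries of a group were close to each other and the groups were well apart. The log2 fold change was -0.46 (SE 0.08, limma adjusted p = 0.103), its value ranged from -0.47 to -0.45 with any single library left out, and it was 0.06 at the same FPKM total. The intron that IRE1 removes is shown because it sets what these values can say: 26 bases in exon 4 of the 5 exons of the transcript Xbp1-201, at chr11:5524279-5524304 of GRCm38, plus strand, inside the coding sequence. Capitals mark the removed bases, with 10 exon bases kept on either side.
Xbp1: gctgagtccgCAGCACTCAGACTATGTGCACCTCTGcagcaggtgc
All 3 coding transcripts of *Xbp1* in the annotation held these bases and none (0) was annotated without them. FPKM summed over the gene count the cut and the uncut form alike, so the table gives no measure of IRE1 activity.

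*Ddit3* and *Atf3* fell most, and *Atf4*, which acts upstream of both, fell by a smaller amount. *Atf4* (chr15:80255184-80257541, plus strand), the transcription factor whose mRNA is translated when eIF2α is phosphorylated, was the most abundant member, at 221 and 201 FPKM in shNC and at 144 and 130 FPKM in shNAT10. That placed it at or above 99.0% of the genes tested, and the shNAT10 values lay far below the shNC values. The mean was 35.1% lower, with a log2 fold change of -0.62 (SE 0.10, limma adjusted p = 0.103), and at the same FPKM total the log2 value was -0.10 and no longer passed.

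*Ddit3* (chr10:127290774-127296288, plus strand) encodes CHOP, a factor that promotes cell death under prolonged stress. It was at 39.5 and 48.4 FPKM in shNC and at 16.9 and 17.6 FPKM in shNAT10. The difference between the shNC libraries was small beside the distance to shNAT10. Its log2 fold change was -1.34 (SE 0.13, limma adjusted p = 0.0489), the mean was 60.7% lower, 3.80% of all genes tested had a lower fold change, and the value was -0.81 at the same FPKM total. Exons of *Ddit3* share 68 bases with *Mars* on the opposite strand and 105 bases with another *Ddit3* gene model on the same strand, and whether counting used strand is not given in the sources used here. *Mars* itself stood at 43.2 and 34.6 FPKM in shNC and at 37.1 and 38.7 FPKM in shNAT10, with overlapping groups and a log2 fold change of -0.03, so the ratio of *Ddit3* to *Mars* was 0.913 and 1.40 in shNC and 0.456 and 0.455 in shNAT10.

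*Atf3* (chr1:191170296-191218039, minus strand), a stress-induced factor of the ATF/CREB family, was at 7.63 and 7.74 FPKM in shNC and at 3.40 and 3.60 FPKM in shNAT10. Replicates were almost equal in both groups. The log2 fold change was -1.11 (SE 0.11, limma adjusted p = 0.0507), from -1.15 to -1.07 with any library left out. At the same FPKM total the value for *Atf3* was -0.60 (limma adjusted p = 0.215), just outside the threshold on the unadjusted p. *Atf3* rested on 602 recovered fragments in all, 92 of them in shNAT10 replicate 1, the fewest of any member in any library, which gives a counting error of 0.12 on the log2 scale.

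**Figure D2:**
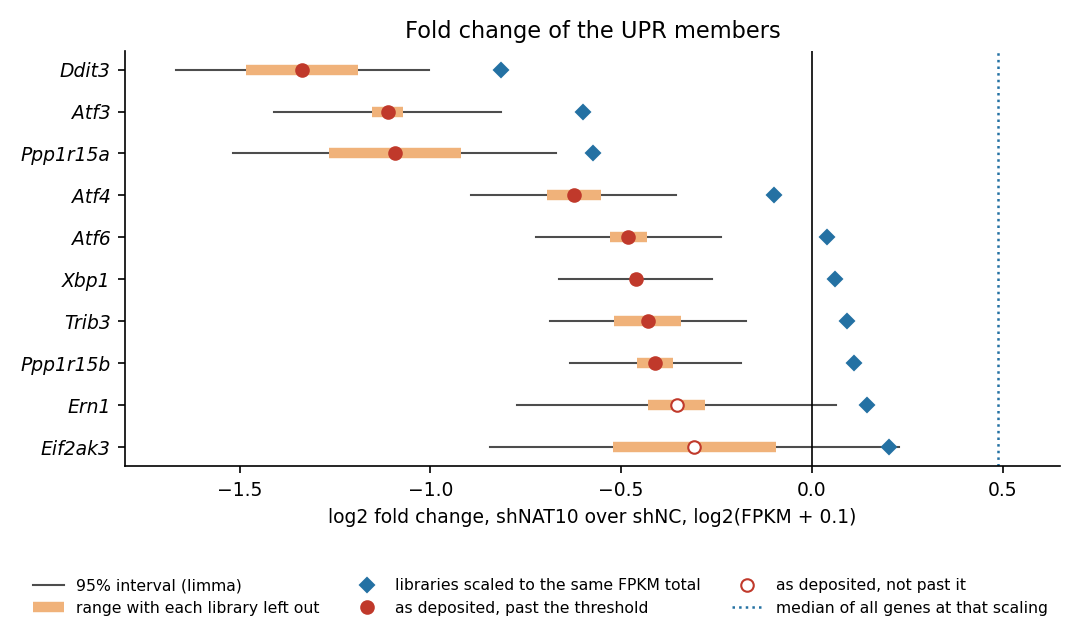
Log2 fold change of each member, shNAT10 over shNC on log2(FPKM + 0.1), with red circles for FPKM as deposited (filled past the threshold, open not), thin lines for 95% intervals, orange bars for the range over the 4 fits that each leave out 1 library, and blue diamonds for libraries scaled to the same FPKM total. All 10 red circles lie below 0, while 6 blue diamonds lie above 0. All 10 diamonds lie below the dotted median of all genes at that scaling, 0.49, which nearly repeats the deposited fit.

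*Trib3* (chr2:152337422-152344032, minus strand), a pseudokinase that binds ATF4 and restrains it and is itself a target of ATF4 and CHOP, fell less than *Ddit3*. It was at 95.3 and 99.7 FPKM in shNC and at 68.0 and 76.9 FPKM in shNAT10. The groups did not overlap, and the shNAT10 libraries differed from each other more than the shNC libraries did. The log2 fold change was -0.43 (SE 0.10, limma adjusted p = 0.160) and 0.09 at the same FPKM total. The call was lost without shNC replicate 1 (log2 fold change -0.46) and without shNC replicate 2 (-0.40), and in limma without the trend (-0.43), each time with an unadjusted p somewhat over 0.05.

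The eIF2α phosphatase subunits differed in the size of their fall. *Ppp1r15a* (chr7:45522916-45526268, minus strand) encodes GADD34, the stress-induced subunit that restores translation, and *Ppp1r15b* encodes CReP, the constitutive one. *Ppp1r15a* was at 31.3 and 26.6 FPKM in shNC and at 11.9 and 15.2 FPKM in shNAT10. Replicates differed in both groups, yet the lowest shNC value stood well above the highest shNAT10 value. Its log2 fold change was -1.09 (SE 0.16, limma adjusted p = 0.0861) and -0.57 at the same FPKM total. *Ppp1r15b* (chr1:133131143-133139783, plus strand) was at 31.3 and 31.1 FPKM in shNC and at 22.7 and 24.2 FPKM in shNAT10. Those values were tight within each group, with a log2 fold change of -0.41 as deposited (SE 0.08, limma adjusted p = 0.139) and 0.11 at the same FPKM total. Exons of *Ppp1r15b* share 640 bases with *Gm26616* on the opposite strand, which stood at 6.28 and 6.70 FPKM in shNC and at 4.51 and 5.06 FPKM in shNAT10, and those of *Ppp1r15a* share 12 bases with *Tulp2*, which stayed at or below 0.932 FPKM.

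Among the 8 members with a promoter in the RefSeq table (GRCm38.p6; *Atf6* and *Ppp1r15b* have no entry), only that of *Ppp1r15a* held one of the motifs searched. The stretch before its start site is shown because the cAMP response element in it, TGACGTCA, is the consensus bound by CREB and ATF family proteins. It lies at chr7:45526269-45526312, minus strand, with the motif in capitals from 12 to 5 bases before the start site.
Ppp1r15a: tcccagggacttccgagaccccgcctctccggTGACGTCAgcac
The same letters, which read alike on both strands, were found in 1.79% of 32851 promoters of the same length. The ER stress element (CCAAT and CCACG, 9 bases apart) was found in 0.119% of promoters, its second form (ATTGG and CCACG, 1 base apart) in 0.0365%, the UPR element TGACGTGG in 0.676% and the C/EBP-ATF response element (TGATG and AAT, 1 base apart) in 0.965%, with both strands searched. None (0) of the 8 members held any of those 4 motifs in this window, from 250 bases before the start to 50 after it.

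Ratios between members inside a library do not depend on scaling between libraries, and they showed unequal falls. The ratio of *Ddit3* to *Atf4* was 0.178 and 0.241 in shNC and 0.118 and 0.135 in shNAT10, a log2 difference of -0.72. *Atf3* over *Atf4* was 0.0345 and 0.0385 in shNC and 0.0237 and 0.0277 in shNAT10, a log2 difference of -0.51. Both ratios were lower in both shNAT10 libraries, so per *Atf4* transcript there was less *Ddit3* and less *Atf3* mRNA. *Trib3* over *Atf4* was 0.431 and 0.496 in shNC and 0.473 and 0.591 in shNAT10, with overlapping groups. *Trib3* over *Ddit3* therefore went from 2.41 and 2.06 in shNC to 4.02 and 4.37 in shNAT10. *Ppp1r15a* over *Ppp1r15b* was 1.00 and 0.855 in shNC and 0.526 and 0.627 in shNAT10, a log2 difference of -0.69: the stress-induced subunit was close to the constitutive one in level with the control shRNA and clearly below it with the *Nat10* shRNA. *Xbp1* over *Ern1* was 39.1 and 35.7 in shNC and 33.8 and 36.4 in shNAT10, groups that overlapped. These ratios were chosen with the fold changes known and carry no test.

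**Figure D3:**
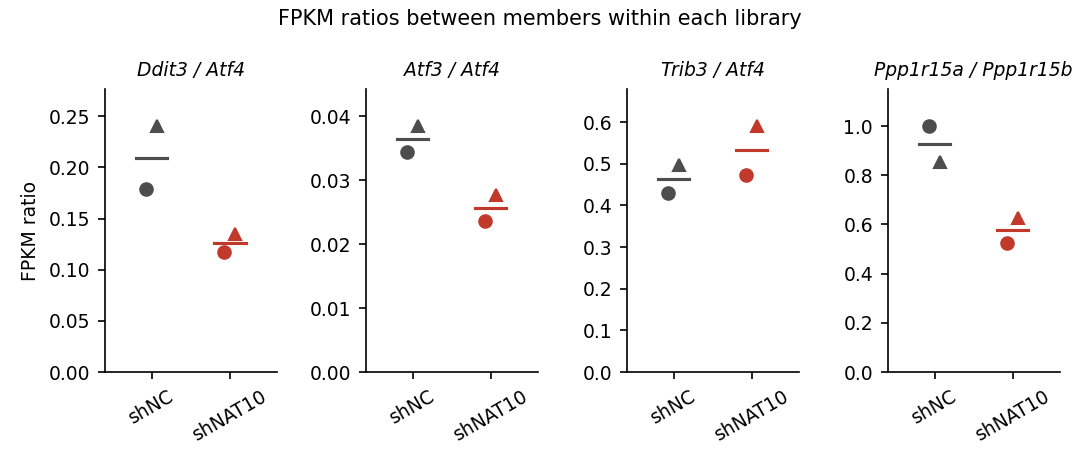
FPKM of one member divided by that of another in the same library, for the shNC (grey) and shNAT10 (red) libraries, with circles for replicate 1, triangles for replicate 2, lines for group means and axes that start at 0. Both shNAT10 points lie below both shNC points for Ddit3 over Atf4, Atf3 over Atf4 and Ppp1r15a over Ppp1r15b, and the groups overlap for Trib3 over Atf4.

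The order of the members by FPKM shifted with these falls. In shNC it ran *Atf4*, then *Trib3* and *Xbp1*, whose libraries overlapped each other, then *Ddit3*, *Ppp1r15b* and *Ppp1r15a*, which overlapped, *Atf6*, *Atf3*, *Eif2ak3* and *Ern1*. In shNAT10 *Ddit3* came below *Ppp1r15b*, *Ppp1r15a* overlapped with *Atf6*, and *Atf3* overlapped with *Eif2ak3*. *Ern1* was the lowest member in all 4 libraries and *Atf4* the highest.

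The genes that ATF6 and XBP1 act on were lower as a list. Of 29 such genes, all tested, 23 fell and none (0) rose, and the median log2 fold change was -0.69 as deposited, -0.25 at the same FPKM total and -0.73 relative to the median of all genes there. ER folding genes accounted for 13 of the 23, out of 15 tested, with a median of -0.95. *Creld2*, a folding cofactor of the ER, was at 160 and 193 FPKM in shNC and at 58.3 and 63.7 FPKM in shNAT10 (log2 fold change -1.53, limma adjusted p = 0.0443). The disulfide isomerase gene *Pdia4* was at 428 and 491 FPKM against 177 and 203 FPKM (-1.28), and *Dnajc3*, an ER co-chaperone that also inhibits eIF2α kinases, at 61.6 and 67.1 FPKM against 32.6 and 34.8 FPKM (-0.93). In each of these the shNAT10 libraries lay far below both shNC libraries. *Hspa5*, which encodes the chaperone BiP that holds the sensors inactive, was named after its values were seen. It stood at 1318 and 1501 FPKM in shNC and at 529 and 604 FPKM in shNAT10 (log2 fold change -1.32). At the same FPKM total *Creld2* passed, while *Hspa5* (-0.79), *Pdia4* (-0.75) and *Dnajc3* (-0.41) did not. ER-associated degradation genes fell in 8 of 10 cases with a median of -0.64, and secretion genes in 2 of 4 with a median of -0.31. The count of the whole list was 2 at the same FPKM total and from 15 to 21 with a library left out, 15 without shNAT10 replicate 1.

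Of 36 listed targets of ATF4 and CHOP 34 were tested, 16 fell and none (0) rose, with a median of -0.31 as deposited, 0.21 at the same FPKM total and -0.27 relative to the median of all genes there. At that scaling 1 gene of the list was lower and 1 higher, and *Pck2* was at 0.02. By role, 5 of 10 genes of amino acid synthesis, 3 of 9 amino acid transporters, 2 of 4 transcription factors and 6 of 11 stress effectors fell. *Chac1*, a glutathione-degrading enzyme, was at 26.7 and 26.6 FPKM in shNC and at 14.8 and 13.8 FPKM in shNAT10 (log2 fold change -0.89). *Nupr1*, a stress-induced chromatin protein, was at 8.87 and 7.64 FPKM against 4.66 and 4.31 FPKM (-0.86), and *Pck2*, the mitochondrial PEP carboxykinase, at 16.3 and 16.4 FPKM against 11.2 and 11.9 FPKM (-0.50). All 3 had groups that did not overlap, and none of them passed at the same FPKM total (*Chac1* -0.37, *Nupr1* -0.35). Among genes named after their values were seen, the asparagine synthetase gene *Asns* stood at 34.8 and 39.5 FPKM in shNC and at 30.3 and 32.3 FPKM in shNAT10, which did not pass (limma adjusted p = 0.337), and *Phgdh* and *Psat1* of serine synthesis had positive fold changes of 0.20 and 0.08 that did not pass. With a library left out, 7 to 12 of the list fell: 10 without shNC replicate 1, 8 without shNAT10 replicate 1 and 7 without shNAT10 replicate 2.

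Of 18 genes of the eIF2 pathway, on which PERK and the phosphatase subunits act, 2 rose and 2 fell, beside 8.41% and 7.83% of all genes tested. No eIF2 subunit rose or fell (0 of 3). The median was -0.02 as deposited, 0.50 at the same FPKM total and 0.02 relative to the median of all genes there. *Eif2ak2*, which encodes the double-stranded RNA-activated eIF2α kinase PKR, rose from 5.31 and 4.84 FPKM in shNC to 10.4 and 9.96 FPKM in shNAT10 (log2 fold change 0.99, limma adjusted p = 0.0610). *Ppp1cc*, a catalytic subunit of protein phosphatase 1, rose from 67.6 and 66.9 to 79.3 and 85.3 FPKM (0.29). The genes that fell were *Impact*, an inhibitor of the kinase GCN2, at 26.5 and 28.7 FPKM against 22.6 and 22.8 FPKM, and the eIF2B subunit gene *Eif2b2*, at 31.7 and 36.5 FPKM against 27.9 and 27.3 FPKM. At the same FPKM total 5 genes of this list rose and none (0) fell, with *Impact* at 0.24 and *Eif2b2* at 0.22. Neither of these passed without shNC replicate 2 (*Impact* -0.22, *Eif2b2* -0.20), shNAT10 replicate 1 (-0.27, -0.31) or shNAT10 replicate 2 (-0.29, -0.28), and *Ppp1cc* passed only without shNAT10 replicate 1, with 0.30, 0.28 and 0.24 without shNC replicate 1, shNC replicate 2 and shNAT10 replicate 2. The other eIF2α kinase genes, *Eif2ak1* and *Eif2ak4*, named after their values were seen, had log2 fold changes of -0.01 and 0.02.

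Of 8 tested transcripts described as substrates of IRE1-dependent decay, 2 rose and 1 fell, beside 8.41% and 7.83% of all genes tested. The list median was 0.17. At the same FPKM total 3 rose and none (0) fell, with a median of 0.64, which is 0.16 relative to that of all genes. *Sparc*, a secreted matrix protein gene, was at 2.40 and 3.16 FPKM in shNC and at 5.70 and 6.49 FPKM in shNAT10 (log2 fold change 1.11), *Scara3*, named after its values were seen, was the other gene that rose (1.36, at most 1.07 FPKM in any library), and *Stt3a*, a subunit of the oligosaccharyltransferase, fell (-0.39). Without shNAT10 replicate 2 neither *Sparc* nor *Scara3* (1.13) passed, and *Scara3* did not pass without shNC replicate 1 either. *Stt3a* did not pass without shNC replicate 1 (-0.39), shNC replicate 2 (-0.39) or shNAT10 replicate 2 (-0.24), and was at 0.13 at the same FPKM total. *Bloc1s1*, the substrate most often measured, was named after its values were seen and had at most 0.433 FPKM. *Sparc* is also a fibroblast product, and 3 of 6 fibroblast markers tested rose, among them *Thy1* (0.76) and *Pdgfra* (0.83). *Pdgfra* did not pass without shNAT10 replicate 1 (0.79) or shNAT10 replicate 2 (0.88). *Dcn*, which led the list, did not pass (0.09). Neither did *Col1a1* (-0.07) and *Col1a2* (-0.06), both named after their values were seen. The part of fibroblast RNA was not tested.

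Immediate early genes, which like *Atf3*, *Ddit3* and *Ppp1r15a* answer many stimuli and handling, were lower as well: 8 of 14 tested fell and none (0) rose, with a median of -0.35 as deposited, 0.12 at the same FPKM total and -0.36 relative to all genes there. At that scaling 1 gene of the list fell. *Klf2*, a zinc finger transcription factor gene, was at 2.17 and 2.14 FPKM in shNC and at 0.690 and 0.848 FPKM in shNAT10 (log2 fold change -1.38). The phosphatase gene *Dusp1* (-0.53) and *Ier2* (-0.44) also fell, with groups that did not overlap, but at the same FPKM total neither passed, with *Dusp1* at -0.01 and *Ier2* at 0.08, and *Ier2* did not pass without shNAT10 replicate 1 (-0.40). Between 3 and 7 genes of the list fell with a library left out: 4 without shNC replicate 2, 3 without shNAT10 replicate 1 and 4 without shNAT10 replicate 2. The part of a general immediate early response in the falls of the members was not tested.

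**Figure D4:**
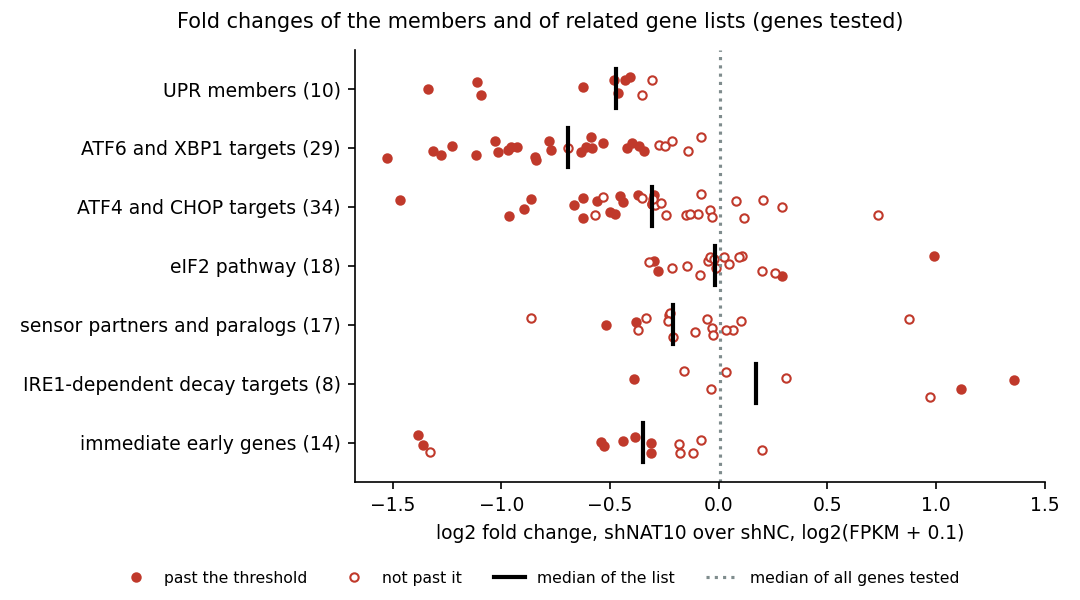
Log2 fold change of every tested gene (circles, filled past the threshold) in the members and in 6 related lists, with black bars for list medians and the dotted line for the median of all 20116 genes; vertical scatter inside a list is arbitrary. As deposited, the medians run from -0.69 for ATF6 and XBP1 targets to 0.17 for decay targets, and at the same FPKM total only that of the ATF6 and XBP1 targets stays below 0.

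Upstream start codons, which the choice by symbol did not use, were counted as a description with no test. In the longest coding transcript of each gene, an ATG lay upstream of the coding start in 7 of the 10 members, against 45.1% of 21509 protein-coding genes, and at least 2 lay there in 5 members against 25.3% of genes. *Atf4*, whose upstream reading frames are the textbook case of translation under eIF2α phosphorylation, had 3, as had *Eif2ak3*, *Ppp1r15a* and *Ppp1r15b*, while *Ddit3* had 2, *Atf3* and *Xbp1* had 1 each and *Atf6*, *Ern1* and *Trib3* had 0. The median 5′ leader was 231.5 nt in the members and 129 nt over all genes, and those of *Atf6* (70 nt) and *Ern1* (120 nt) were shorter than the latter. *Ppp1r15a* and *Ppp1r15b*, with 3 each, had log2 fold changes of -1.09 and -0.41. A link between the count of upstream ATG and the fold changes was not tested. mRNA levels say nothing of how much of each protein was made.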

How the data were processed

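Long RNA-seq libraries of FGSCs (2 shNC, 2 shNAT10) were grouped by their titles, which also give the replicate numbers. For each library the authors deposited FPKM, covering 53465 genes. The methods of the study name rRNA depletion, while the labels name mRNA isolation and a directional kit, and the submitters' processing notes name cutadapt, HISAT2, DESeq2 and mm10. The counting program, its annotation and its use of strand are not given in the sources used here. Columns with the authors' own comparison (log2 fold change, p-value, adjusted p-value) were not used, and 0 FPKM columns of single libraries were left out.

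The members and all lists were chosen with earlier results of these data known. The 20116 genes with a mean of at least 0.1 FPKM were tested as log2(FPKM + 0.1), a scale that understates changes of low genes. The groups were compared with limma 3.58.1 (lmFit, eBayes with trend) in R 4.3.3, two-sided, with Benjamini-Hochberg adjustment over all genes. A call needed an unadjusted p of at most 0.05 together with a fold change over 1.2, the threshold the study states for these libraries. FPKM were turned back into fragments with GENCODE M21 exon lengths, which matched 53360 genes (99.8%). Of the values under 50 fragments, 96.0% to 96.5% per library came out whole within 0.02. Recovered fragments served for depth, for limma-voom and for a floor of 3 fragments. Counting errors cover counting only. The rRNA-related loci were 359 genes.

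Named genes were all members, Nat10, up to 3 genes per list and direction with the smallest p at a mean of at least 1 FPKM, and markers that were at 0 or led their list. Genes named outside this rule are marked as named after their values were seen, apart from genes whose exons overlap a member and the features Gm23935 and Lars2. The test was tested on simulated data. Alternatives were pseudocounts of 1 and 0.01, no filter, a mean of at least 1 FPKM, other scalings, limma without trend, a replicate block, leaving out each library, and limma-voom. Promoters came from the RefSeq table and transcripts from GENCODE M21 (both GRCm38). Tables and figures were made in Python 3.11.15 (pandas 2.3.3, matplotlib 3.10.9).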

Additional observations from a re-analysis of the deposited data

How the results depend on the processing

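Of the comparison's counts and median, 51 of the recomputed values stayed the same, 8 moved and 1 reversed. Those that stayed the same include median-ratio rescaling, which with factors of 1 repeats the fit as deposited and tests nothing. Scaling to the same FPKM total without rRNA-related loci gave 4578 genes higher and 204 lower (1691 and 1576 as deposited), 2 members lower in place of 8, and a members' median of 0.050 in place of -0.47. It reversed *Ern1* (0.15), *Eif2ak3* (0.20), *Atf6* (0.039), *Xbp1* (0.061), *Trib3* (0.093) and *Ppp1r15b* (0.11). Equal totals of recovered fragments, and FPKM totals without *Gm23935* and *Lars2*, were chosen after seeing the data. The first gave 2472 genes higher, 979 lower and a members' median of -0.36, the second 1846 higher, 1273 lower and a median of -0.43. With 1 library left out, 1108 to 1734 genes were higher and 899 to 1659 lower, fewest without shNAT10 replicate 1 (1108 and 899), with 1007 lower without shNAT10 replicate 2, where the lone library is assumed to vary like the others. Between 7 and 8 members were then lower, with medians from -0.52 to -0.47.

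The sources used here do not say whether libraries with the same replicate number were handled together. Deviations of same-numbered libraries correlated at r = 0.00711 across 20116 genes. With 2 libraries per group the crossed pairs give -0.00711 by construction, so this value cannot settle the question. A fit with the replicate block gave 1587 genes higher, 1527 lower and 8 members lower. The adjusted p of *Ddit3*, 0.0489 by limma, ran from 4.01e-08 (limma-voom) to 0.451 (without shNAT10 replicate 1) over the alternatives and was 0.0745 with the block. No gene (0) had an adjusted p under 0.05 with a pseudocount of 1 or 0.01, without the filter, without the trend, with the block or with any library left out, while 2011 to 3656 genes had an unadjusted p under 0.05 in those limma fits and limma-voom gave 849 higher and 731 lower after adjustment. With a mean of at least 1 FPKM, 185 genes were higher and 111 lower after adjustment, 3 of them members. Depth limited *Atf3* most among the members, with 602 fragments, and *Atf4* least, with 20711.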
